A study of Mus musculus with 3 samples.

Results

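A set of 10 genes of cytokine feedback was followed through single blood cells of mice: Socs1, Socs2, Socs3 and Cish of the SOCS family, the transcription factor gene Stat3, the cytokine gene Il10 and the receptor genes Il10ra, Il10rb, Il6ra and Il6st. They were chosen by name, with earlier results of these data known, and all 10 are among the 31053 genes of the deposited matrices. Cells were assigned to 5 lineages by marker gates. A cell with at least 5% of its UMIs (unique molecular identifiers, 1 per captured transcript) from S100a8 and S100a9 was a neutrophil. The remaining cells were B cells with at least 3 UMIs of Cd79a, Cd79b and Ms4a1, then T cells with at least 2 of Cd3d, Cd3e, Cd3g and Trac, then NK cells with at least 2 of Ncr1, Klrb1c and Klra8, then monocytes with at least 3 of Csf1r, Ms4a6c and F13a1.

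The study holds 3 droplet libraries of C57BL/6J mouse blood, 1 for each group. The groups were HDCA treatment with CLP (HDCA+CLP), CMC treatment with CLP (CLP) and Sham, each labelled 12 h. HDCA is read here as hyodeoxycholic acid, a bile acid, CMC as carboxymethylcellulose, a common vehicle, and CLP as puncture of the ligated caecum, which causes sepsis from gut bacteria; the labels expand none of these. CMC is named for the CLP group alone, and age, sex and the number of animals behind each library are not given in the sources used here. With 1 library per group there is no replicate check and no test between groups. Intervals in brackets are 95% intervals that cover counting error only.

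The libraries held 12205, 11387 and 7159 barcodes and 95178381, 87031721 and 42427093 UMIs for HDCA+CLP, CLP and Sham, and 10867, 9900 and 6511 cells were kept. Pairs of libraries shared 17 to 34 barcode sequences. The labels call the cells mononuclear, yet the neutrophil gate held 76.8% of kept cells in HDCA+CLP, 46.2% in CLP and 3.56% in Sham. All 9 neutrophil, 9 monocyte, 5 B cell, 8 T cell and 5 NK cell markers were detected in their own gate in each library. These lists include the genes that define the gates. Detection means any UMI in the summed cells and is no measure of purity. Neutrophils numbered 8342, 4573 and 232 in HDCA+CLP, CLP and Sham, monocytes 270, 697 and 272, B cells 273, 284 and 2672, T cells 1353, 3037 and 3001, and NK cells 481, 979 and 261. The neutrophil gene S100a8 was also counted in the other gates, where it stood at 2064 CPM (UMIs scaled to a total of 1000000 per gate and library) in T cells of HDCA+CLP, 1501 CPM in CLP and 36.2 CPM in Sham. The share of UMIs estimated as free RNA in the B, T and NK gates was 0.995% to 2.16%, and in monocytes 3.32% in HDCA+CLP, 3.65% in CLP and 16.5% in Sham. The monocyte values are too high by what monocytes themselves transcribe of S100a8 and S100a9, on which the estimate rests outside neutrophils. In the neutrophil gate the share, estimated from B, T and NK cell genes, was 6.99% in HDCA+CLP, 2.84% in CLP and 1.53% in Sham.

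Cytokines of the interleukin-6 and interleukin-10 families act through paired receptor chains that activate JAK kinases, which phosphorylate STAT proteins, STAT3 above all. Il6ra encodes the interleukin-6 binding chain and Il6st the signalling chain gp130, shared by the interleukin-6 family. Il10ra encodes the ligand-binding chain of the interleukin-10 receptor, and Il10rb the accessory chain shared with interleukin-22 and lambda interferon receptors. STATs induce the SOCS genes, whose SH2-domain proteins bind receptors or kinases and end the signal. SOCS3 acts on gp130 and on the G-CSF receptor, SOCS1 on JAK kinases under interferon receptors, and CIS (Cish) and SOCS2 are induced by STAT5 downstream of interleukin-2 and growth hormone type receptors. Interleukin-10 signals through STAT3 and restrains inflammatory cytokine production in myeloid cells.

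In CLP against Sham most members at or past 2-fold were higher, with Socs3, Socs1 and Il10 at least 2-fold higher in 4 lineages each. Of the 50 gene and lineage pairs, 46 had at least 20 UMIs over both libraries, and 21 of them were at least 2-fold higher in CLP, where 9.81% of all gene and lineage pairs were. A further 3 were at least 2-fold lower, against a background of 14%. The 3 were Socs3 and Il6ra in neutrophils and Il10ra in monocytes. Because the set was chosen with earlier results of these data known, its counts beside the background are a description. By lineage, 3 of 8 members counted were higher and 2 lower in neutrophils (background 11.9% and 22.1%), and 4 of 9 higher and 1 lower in monocytes (11% and 16.8%). In B cells 5 of 9 were higher and 0 lower (9.15% and 13.3%), in T cells 5 of 10 and 0 (10.1% and 6.62%), and in NK cells 4 of 10 and 0 (6.82% and 12.9%). In HDCA+CLP against CLP, 45 pairs were counted; 0 were at least 2-fold higher (background 2.25%) and 6 were lower (background 2.66%). These 6 were Il10 in neutrophils and in monocytes, Socs2 in T cells, Cish in NK cells, and Il6ra in B and in NK cells. In that comparison the background of genes at least 2-fold higher and lower was 2.53% and 1.12% in neutrophils, 1.71% and 2.56% in monocytes, 4.11% and 7.29% in B cells, 1.92% and 1.98% in T cells, and 1.49% and 1.86% in NK cells. The median gene shifted little, by -0.27 to -0.03 on the log2 scale in CLP against Sham and by -0.02 to 0.11 in HDCA+CLP against CLP, depending on the lineage.

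**Figure D1:**
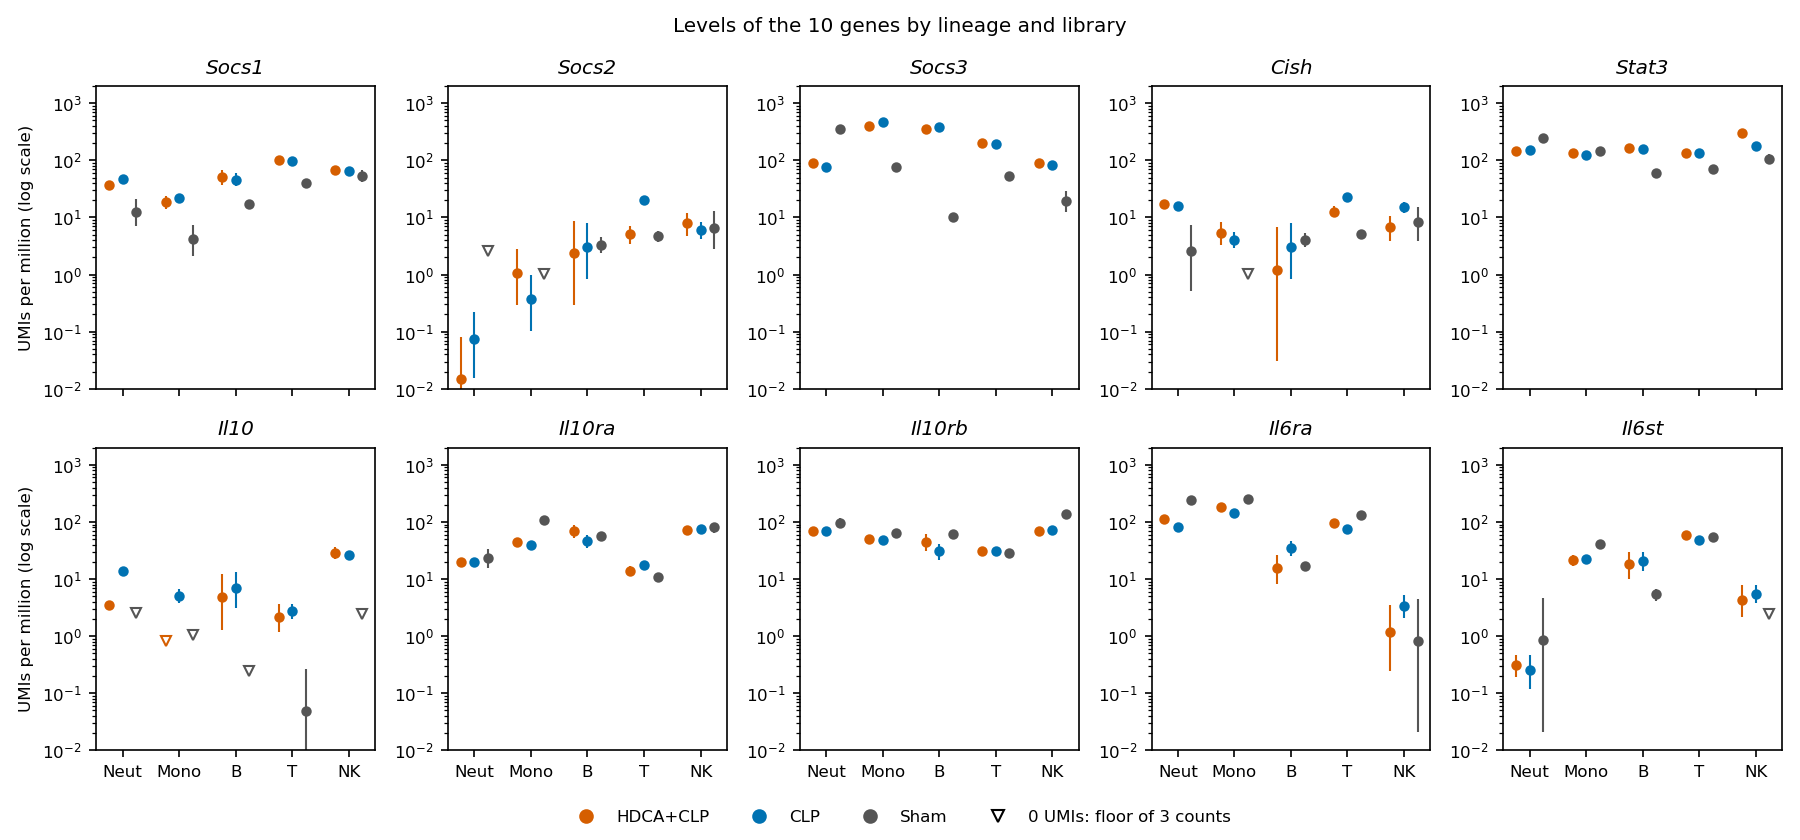
Level of each of the 10 genes (CPM, log scale) in 5 lineages for the HDCA+CLP, CLP and Sham libraries, with 95% counting intervals; open triangles mark 0 UMIs at the floor of 3 counts. Socs3 in neutrophils lies lower in HDCA+CLP and CLP (91.3 and 77.5 CPM) than in Sham (347 CPM), and higher in the other 4 lineages.

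**Figure D2:**
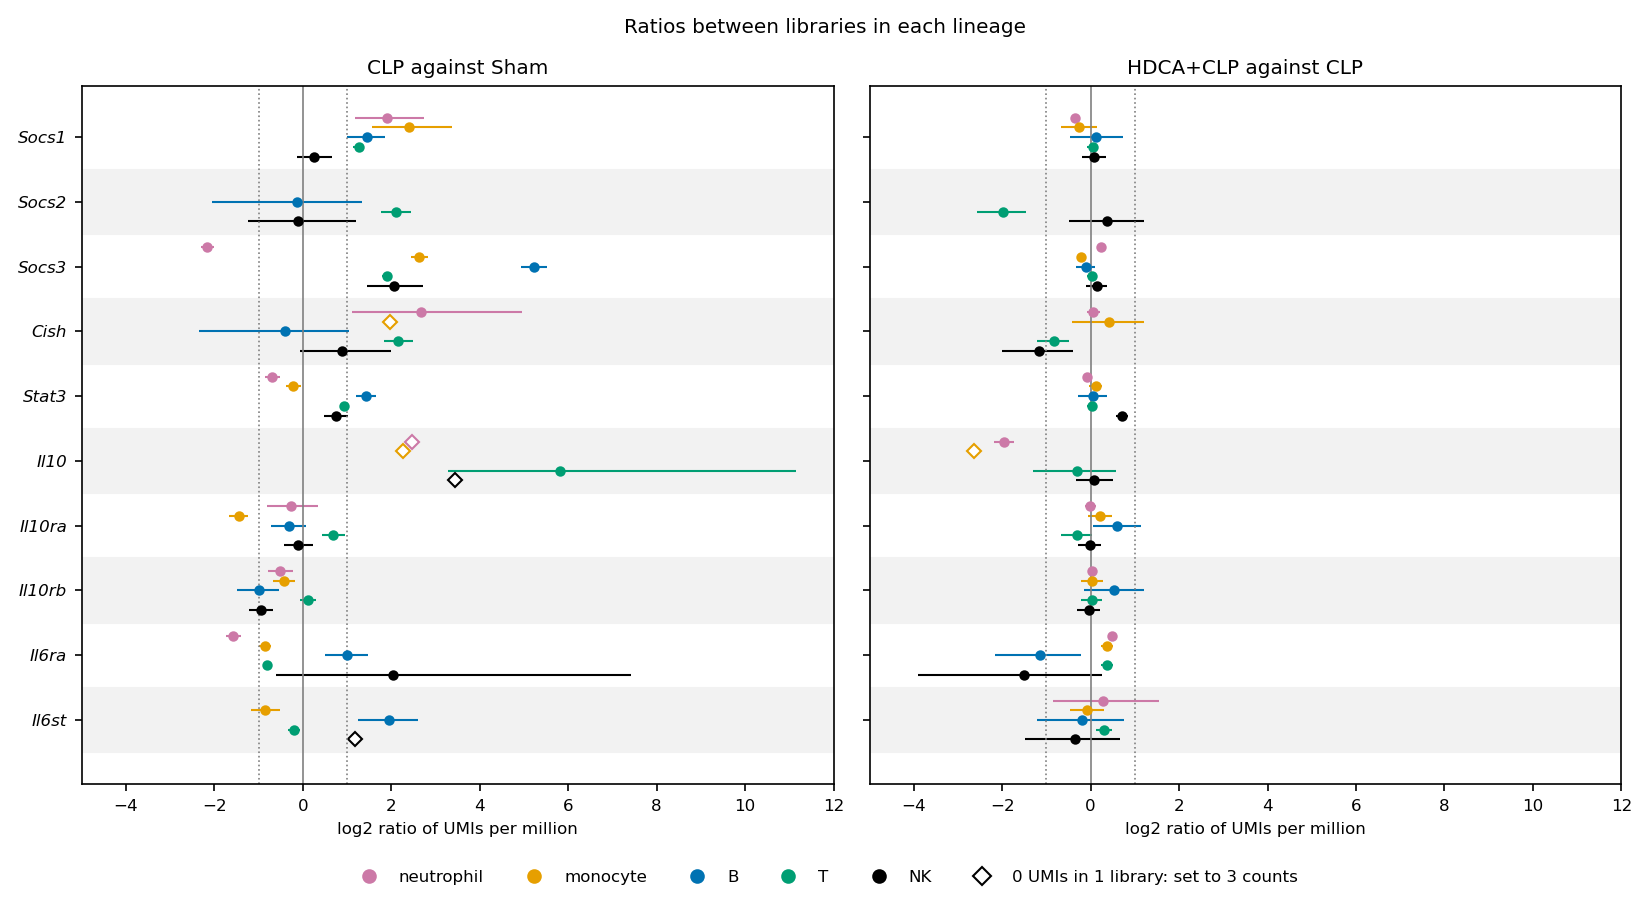
Log2 ratios of CPM in each lineage for CLP against Sham (left) and HDCA+CLP against CLP (right), with 95% counting intervals; dotted lines mark 2-fold, and open diamonds mark ratios against a library at 0 UMIs. On the left 21 points lie at or past 2-fold upward and 3 downward; on the right 0 and 6.

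The promoters of the 3 SOCS genes that were at least 2-fold higher in several lineages are shown because STAT and interferon response motifs are textbook features of this feedback. Promoter windows from 250 bases before to 50 bases after the start site were available for 6 of the 10 genes in the RefSeq table (GRCm38.p6), Socs1, Socs3, Cish, Stat3, Il6ra and Il6st. Capitals mark every match, on either strand, of the STAT motif TTCNNNGAA or of the interferon-stimulated response element core, GAAA, any 2 bases and GAAA again. The windows are chr16:10785487-10785786 on the minus strand for Socs1, chr11:117969317-117969616 on the minus strand for Socs3 and chr9:107296409-107296708 on the plus strand for Cish.
Socs1: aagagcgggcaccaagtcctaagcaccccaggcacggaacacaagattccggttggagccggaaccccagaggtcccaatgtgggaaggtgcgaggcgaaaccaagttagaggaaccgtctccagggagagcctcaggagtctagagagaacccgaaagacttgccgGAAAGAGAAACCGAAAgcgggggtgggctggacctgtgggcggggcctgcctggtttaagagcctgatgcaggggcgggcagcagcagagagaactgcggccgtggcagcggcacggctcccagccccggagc
Socs3: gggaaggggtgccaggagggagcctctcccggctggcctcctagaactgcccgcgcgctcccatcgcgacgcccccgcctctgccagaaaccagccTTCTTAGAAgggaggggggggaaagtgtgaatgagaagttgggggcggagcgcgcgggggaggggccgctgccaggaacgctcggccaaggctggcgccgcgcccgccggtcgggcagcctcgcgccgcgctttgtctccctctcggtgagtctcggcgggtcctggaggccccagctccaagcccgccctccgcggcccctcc
Cish: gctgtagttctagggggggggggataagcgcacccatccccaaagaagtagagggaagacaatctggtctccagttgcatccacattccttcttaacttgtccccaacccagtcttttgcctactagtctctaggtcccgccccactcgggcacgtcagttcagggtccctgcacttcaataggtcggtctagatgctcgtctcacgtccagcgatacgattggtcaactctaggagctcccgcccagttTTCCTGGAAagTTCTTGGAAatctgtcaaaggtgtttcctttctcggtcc
The Socs1 window held 2 overlapping matches of the interferon motif, GAAAGAGAAA and GAAACCGAAA, starting 83 and 77 bases before the start site. The Socs3 window held 1 match of TTCNNNGAA, TTCTTAGAA, starting 154 bases before it, and the Cish window held 2, TTCCTGGAA and TTCTTGGAA, beginning at bases 1 and 12, counting the start site as 1. Stat3, Il6ra and Il6st had 0 matches of either motif. Among 32851 RefSeq promoter windows of this length, 8.30% held TTCNNNGAA and 3.44% held the interferon motif, with 0.457% and 0.225% holding at least 2. A match describes letters in the window and does not show a bound site.

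Socs3, the inhibitor of gp130 and G-CSF receptor signalling, was the member that differed by at least 2-fold between CLP and Sham in all 5 lineages. In monocytes it stood at 403 CPM in HDCA+CLP (1488 UMIs), 468 CPM in CLP (4935 UMIs) and 75.5 CPM in Sham (218 UMIs). In B cells it stood at 348 CPM in HDCA+CLP, 376 CPM in CLP and 10.1 CPM in Sham. T cells had 198 CPM in HDCA+CLP, 195 CPM in CLP and 52.4 CPM in Sham. In these lineages both CLP libraries were far above Sham. NK cells had 89.2 CPM in HDCA+CLP, 81.3 CPM in CLP and 19.6 CPM in Sham. Neutrophils alone ran the other way, with 91.3 CPM in HDCA+CLP, 77.5 CPM in CLP and 347 CPM in Sham. The log2 ratio of CLP to Sham was 5.22 [4.93, 5.52] in B cells, 2.63 [2.44, 2.83] in monocytes, 2.05 [1.46, 2.71] in NK cells, 1.90 [1.80, 1.998] in T cells and -2.16 [-2.31, -2.01] in neutrophils. In B cells this is a 37.3-fold difference. HDCA+CLP against CLP gave log2 ratios between -0.21 and 0.24 in the 5 lineages.

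The order of the lineages for Socs3 differed between libraries. In CLP monocytes were highest, then B, T and NK cells, with neutrophils last, and the intervals of NK cells (74.2 to 88.8 CPM) and neutrophils (74.8 to 80.3 CPM) overlapped. In HDCA+CLP the order was monocytes, B cells, T cells, neutrophils and NK cells, with overlap of monocytes (383 to 424 CPM) and B cells (309 to 391 CPM) and of neutrophils (89.1 to 93.6 CPM) and NK cells (77.9 to 102 CPM). In Sham neutrophils were highest, followed by monocytes, T cells, NK cells and B cells, and no neighbours overlapped. When every cell was thinned to 2000 UMIs, leaving out shallower cells, 46.9% of B cells had a Socs3 UMI in HDCA+CLP, 39.2% in CLP and 1.61% in Sham. Unthinned, the shares of B cells were 52.4% in HDCA+CLP, 58.8% in CLP and 3.56% in Sham. Few cells carried much of the B cell signal in CLP: 28 of 284 cells had at least 5 Socs3 UMIs, and they held 47.7% of the 491 UMIs, while in HDCA+CLP 10 of 273 such cells held 19.3% of 290 UMIs.

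Markers of other cells were also higher in the B gate after CLP. The 9 neutrophil markers summed to 7338 CPM in HDCA+CLP, 4497 CPM in CLP and 118 CPM in Sham, and the 9 monocyte markers to 191 CPM, 941 CPM and 78.1 CPM in the same libraries. Among monocyte markers, Ace was at 0 in the B gate of CLP, and Cx3cr1, Ace and Treml4 were at 0 in HDCA+CLP. The 5 B cell markers summed to 3732 CPM in HDCA+CLP, 2642 CPM in CLP and 7018 CPM in Sham, and the part of other cells in the Socs3 level was not tested. Free RNA at the estimated share would have given 2.52 CPM of Socs3 in B cells of HDCA+CLP, 3.30 CPM in CLP and 0.619 CPM in Sham. With cells that passed only 1 gate, the log2 ratio of CLP to Sham in B cells was 5.43.

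Within T cells and monocytes the Socs3 difference was present in every subset examined. T cells with Cd4 and no Cd8 UMI had 216 CPM in HDCA+CLP, 193 CPM in CLP and 58.8 CPM in Sham. T cells with Cd8 and no Cd4 UMI had 187 CPM in HDCA+CLP, 184 CPM in CLP and 42.9 CPM in Sham. T cells with a UMI of Foxp3, the regulatory T cell factor, had 304 CPM in HDCA+CLP (37 cells), 266 CPM in CLP (56 cells) and 65.8 CPM in Sham (124 cells). These T cell subsets differed less from each other within a library than either CLP library differed from Sham. Monocytes with Ly6c2 or Ccr2 only, markers of classical monocytes, had 384 CPM in HDCA+CLP (202 cells), 439 CPM in CLP (497 cells) and 80.6 CPM in Sham (40 cells). Monocytes with Ace, Treml4 or Cx3cr1 only, markers of nonclassical monocytes, had 887 CPM in HDCA+CLP (10 cells), 987 CPM in CLP (34 cells) and 105 CPM in Sham (50 cells). Most of the 272 Sham monocytes had UMIs of both marker sets or of neither, and were in neither subset.

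In neutrophils the Socs3 difference was not alike in cells with many and with few granule gene transcripts. Camp, Ngp and Ltf encode proteins of neutrophil granules and are transcribed in immature cells. Cells with under 1% of UMIs from these 3 genes made up 18.2% of neutrophils in HDCA+CLP (1518 cells), 10.4% in CLP (474 cells) and 92.2% in Sham (214 cells). In them Socs3 stood at 264 CPM in HDCA+CLP, 281 CPM in CLP and 415 CPM in Sham. Cells with at least 1% had 68.7 CPM in HDCA+CLP, 63.8 CPM in CLP and 10.0 CPM in Sham, the last from 2 UMIs in 18 cells. The log2 ratio of CLP to Sham was thus -0.56 [-0.74, -0.38] in cells under 1%, against -2.16 in the whole gate, and 2.68 [0.82, 5.72] in cells at or above 1%. Some immediate early genes, induced within minutes of a stimulus, were lower in CLP beside Socs3 in the whole gate. Another such gene, Nr4a1, was not, with 39.0 CPM in CLP and 38.9 CPM in Sham. Junb was at 359 CPM in CLP and 2039 CPM in Sham, and Dusp1 at 443 CPM in CLP and 3126 CPM in Sham; their part in the result was not tested.

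**Figure D3:**
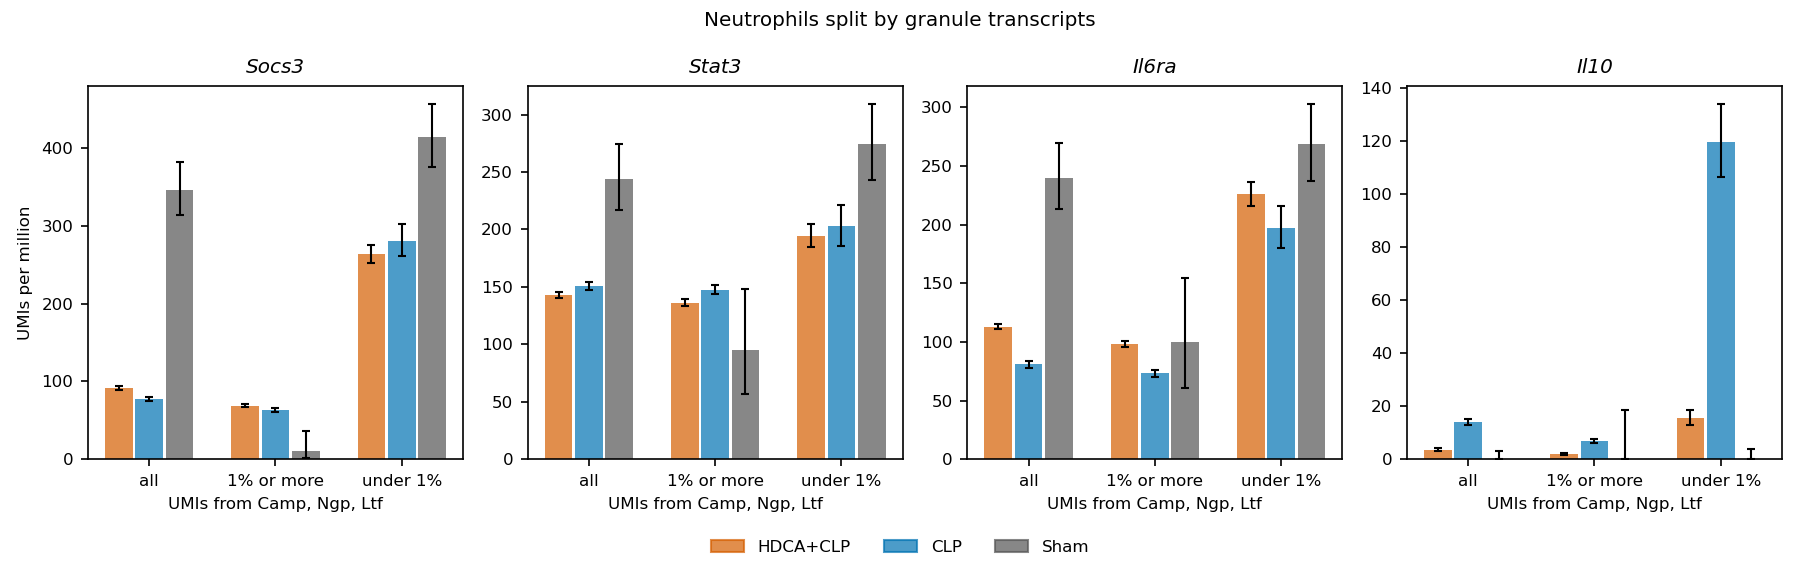
Socs3, Stat3, Il6ra and Il10 (CPM, bars with 95% counting intervals) in all neutrophils and in those with at least 1% or under 1% of UMIs from Camp, Ngp and Ltf, for HDCA+CLP, CLP and Sham. Socs3 in cells under 1% is 264, 281 and 415 CPM, a narrower range than over all neutrophils.

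Socs1, the inhibitor of JAK kinases under interferon receptors, was at least 2-fold higher in CLP than in Sham in 4 lineages. T cells had 101 CPM in HDCA+CLP, 98.2 CPM in CLP and 40.8 CPM in Sham. Neutrophils had 37.2 CPM in HDCA+CLP, 47.3 CPM in CLP and 12.7 CPM in Sham (15 UMIs). The ratios of CLP to Sham were 1.27 [1.15, 1.39] and 1.90 [1.17, 2.74] on the log2 scale. Monocytes had 18.4 CPM in HDCA+CLP, 22.0 CPM in CLP and 4.15 CPM in Sham (12 UMIs), a log2 ratio of CLP to Sham of 2.40 [1.57, 3.38]. At the estimated share, free RNA would give 1.41 CPM in HDCA+CLP, 2.07 CPM in CLP and 4.92 CPM in Sham monocytes. That share is too high in monocytes, by their own S100a8 and S100a9, so whether the Sham level lay above background could not be told. With this free RNA subtracted and Sham then set to the floor of 3 counts the log2 ratio was 4.06. B cells had 50.4 CPM in HDCA+CLP, 46.0 CPM in CLP and 16.9 CPM in Sham, a log2 ratio of CLP to Sham of 1.44 [1.003, 1.86]. NK cells stood apart by a high level in Sham: 67.9 CPM in HDCA+CLP, 64.4 CPM in CLP and 53.9 CPM in Sham, with an interval of the CLP to Sham log2 ratio from -0.12 to 0.66. T cells were highest in HDCA+CLP and in CLP, with NK cells next, and NK cells were highest in Sham, where their interval overlapped that of T cells. In HDCA+CLP B cells overlapped both NK cells and neutrophils, and in CLP and Sham B cells and neutrophils overlapped, as did neutrophils and monocytes in Sham. HDCA+CLP against CLP was lower in neutrophils by a log2 ratio of -0.35 [-0.44, -0.26], and in the other 4 lineages the interval included 0.

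Cish, a STAT5-induced inhibitor, was at least 2-fold higher in CLP than in Sham in neutrophils, monocytes and T cells. Neutrophils had 16.9 CPM in HDCA+CLP, 16.2 CPM in CLP and 2.54 CPM in Sham, where 3 UMIs were found; the log2 ratio of CLP to Sham was 2.67 [1.12, 4.95]. Monocytes had 5.42 CPM in HDCA+CLP, 4.07 CPM in CLP and 0 UMIs in Sham, so CLP was at least 3.92-fold higher than a floor of 3 counts in Sham. T cells had 12.6 CPM in HDCA+CLP, 22.4 CPM in CLP and 5.04 CPM in Sham. In T cells the log2 ratio was -0.83 [-1.20, -0.48] for HDCA+CLP against CLP and 2.16 [1.84, 2.48] for CLP against Sham, which left HDCA+CLP between the others. NK cells had 6.71 CPM in HDCA+CLP (17 UMIs), 15.0 CPM in CLP (89 UMIs) and 8.16 CPM in Sham (10 UMIs). The NK ratio of HDCA+CLP to CLP was -1.16 [-2.001, -0.40] on the log2 scale, where 1.86% of all genes in NK cells were at least 2-fold lower. In B cells Cish had 1, 4 and 50 UMIs in HDCA+CLP, CLP and Sham, too few for an order of the libraries.

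Socs2, which acts on growth hormone and related receptors, had most of its UMIs in T cells. T cells held 52.5% of its 61 UMIs in HDCA+CLP, 85.0% of 386 in CLP and 65.8% of 146 in Sham. Its level in T cells was 5.04 CPM in HDCA+CLP (32 UMIs), 20.01 CPM in CLP (328 UMIs) and 4.65 CPM in Sham (96 UMIs). CLP was therefore the high library, with a log2 ratio of 2.10 [1.77, 2.45] to Sham, and HDCA+CLP against CLP was -1.99 [-2.56, -1.46]. NK cells had 7.89 CPM in HDCA+CLP (20 UMIs), 6.06 CPM in CLP (36 UMIs) and 6.53 CPM in Sham (8 UMIs), so that the intervals of NK and T cells overlapped in HDCA+CLP and Sham and T cells were higher in CLP. At least 2-fold lower levels were found for 1.98% of genes in T cells in HDCA+CLP against CLP. Of the T cells, those with no Cd4 or Cd8 UMI had the most Socs2 in CLP: 10.3 CPM in HDCA+CLP (589 cells), 39.2 CPM in CLP (1488 cells) and 8.18 CPM in Sham (829 cells). Cd4-only cells had 6.03, 15.8 and 5.78 CPM in HDCA+CLP, CLP and Sham, and Cd8-only cells had 0.383, 1.39 and 0.998 CPM in the same libraries. Absence of a Cd4 or Cd8 UMI can reflect depth, and the median UMIs of these cells were 3704, 4336.5 and 5823 in HDCA+CLP, CLP and Sham. Foxp3-positive cells had 19.4 CPM in HDCA+CLP (3 UMIs), 32.8 CPM in CLP (8 UMIs) and 62.3 CPM in Sham (53 UMIs), so that Sham was highest there, with an interval of the CLP to Sham log2 ratio from -2.21 to 0.15. In neutrophils Socs2 had 1, 3 and 0 UMIs in HDCA+CLP, CLP and Sham, and in monocytes 4, 4 and 0.

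Stat3, the transcription factor downstream of both receptor families, was present in every lineage and library at 59.4 to 295 CPM. B cells had 164 CPM in HDCA+CLP, 159 CPM in CLP and 59.4 CPM in Sham, the one lineage where CLP was at least 2-fold above Sham (log2 1.42 [1.20, 1.65]). T cells had 136 CPM in HDCA+CLP, 133 CPM in CLP and 70.0 CPM in Sham, a log2 ratio of CLP to Sham of 0.93 [0.83, 1.03]. NK cells had 295 CPM in HDCA+CLP, 179 CPM in CLP and 107 CPM in Sham. NK cells were the lineage where all 3 libraries were well separated, with log2 ratios of 0.72 [0.58, 0.86] for HDCA+CLP against CLP and 0.74 [0.48, 1.02] for CLP against Sham. Neutrophils had 143 CPM in HDCA+CLP, 151 CPM in CLP and 244 CPM in Sham, and monocytes had 137, 126 and 146 CPM in HDCA+CLP, CLP and Sham. Among neutrophils under 1% of granule UMIs the Stat3 log2 ratio of CLP to Sham was -0.44 [-0.65, -0.22], against -0.70 [-0.87, -0.52] in the whole gate. NK cells were highest in HDCA+CLP and in CLP, and neutrophils in Sham; in CLP the intervals of NK and B cells overlapped, as did those of B cells and neutrophils and of T cells and monocytes. In HDCA+CLP each neighbour after NK cells overlapped the next, and in Sham none did.

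Il10, the cytokine itself, was near absent from Sham, with 1 UMI in 6511 cells, against 335 UMIs in HDCA+CLP and 838 in CLP. Among the 5 lineages NK cells had the highest level, at 28.4 CPM in HDCA+CLP (72 UMIs), 26.8 CPM in CLP (159 UMIs) and 0 in Sham. Neutrophils held most of the UMIs, 72.5% in HDCA+CLP and 65.9% in CLP, against 21.5% and 19.0% in NK cells. CLP was at least 10.9-fold higher in NK cells than a floor of 3 counts in Sham. Neutrophils had 3.58 CPM in HDCA+CLP (243 UMIs), 13.9 CPM in CLP (552 UMIs) and 0 in Sham, which makes CLP at least 5.50-fold higher than the floor in Sham. The log2 ratio of HDCA+CLP to CLP in NK cells was 0.09, with an interval from -0.34 to 0.50 that includes 0, and HDCA+CLP was lower in neutrophils, with -1.96 [-2.19, -1.74], where 1.12% of all genes were at least 2-fold lower. Monocytes had 0 UMIs in HDCA+CLP, 53 UMIs (5.02 CPM) in CLP and 0 in Sham; HDCA+CLP was at least 6.18-fold lower than CLP on the same floor. Markers of basophils followed the same pattern in the monocyte gate: Mcpt8 had 0 UMIs in HDCA+CLP, 61 in CLP and 0 in Sham, Prss34 had 0, 72 and 0, and Cpa3 had 0, 9 and 0. All 4 basophil markers summed to 13.5 CPM in CLP and were at 0 in HDCA+CLP and Sham; their part in the Il10 level was not tested. T cells had 2.20 CPM in HDCA+CLP (14 UMIs), 2.75 CPM in CLP (45 UMIs) and 1 UMI in Sham, a CLP to Sham ratio of 56.7 with a log2 interval from 3.27 to 11.16. Foxp3-positive T cells had 0 UMIs in HDCA+CLP (37 cells), 8 UMIs in CLP (56 cells) and 0 in Sham (124 cells). Their level in CLP, 32.8 CPM with an interval from 14.1 to 64.6 CPM, was thus not apart from that of NK cells. Of the T cells with Il10, 44.4% in HDCA+CLP and 35.1% in CLP also passed another gate, against 2.75% and 7.90% of T cells without it. The B gate held 1 cell with Il10 in HDCA+CLP (4 UMIs), 1 in CLP (9 UMIs) and 0 in Sham, and the cell in CLP passed 2 gates.

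Il10 was spread over NK cells and concentrated in few neutrophils. In NK cells, 49 of 481 cells carried it in HDCA+CLP and 123 of 979 in CLP, with at most 4 and 5 UMIs in 1 cell. Thinned to 2000 UMIs, 5.04% of NK cells had an Il10 UMI in HDCA+CLP and 3.95% in CLP, against 0.379% and 0.438% of T cells in the same libraries. Median UMIs of NK cells without Il10 were 4800.5 and 5268, and of T cells without it 4062.5 and 4709.5. In neutrophils, 141 of 8342 cells carried Il10 in HDCA+CLP and 115 of 4573 in CLP, with maxima of 9 and 51 UMIs. Cells with at least 5 Il10 UMIs numbered 10 in HDCA+CLP, where they held 25.1% of the neutrophil Il10 UMIs, and 28 in CLP, where they held 74.5%. Without these cells the neutrophil level was 2.68 CPM in HDCA+CLP and 3.58 CPM in CLP, a log2 ratio of -0.42 in place of -1.96. By count, most of the difference between the libraries lay in 28 cells of CLP and 10 of HDCA+CLP. These cells were picked by Il10 itself after values were seen, so this describes where the UMIs lay and is no test.

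**Figure D4:**
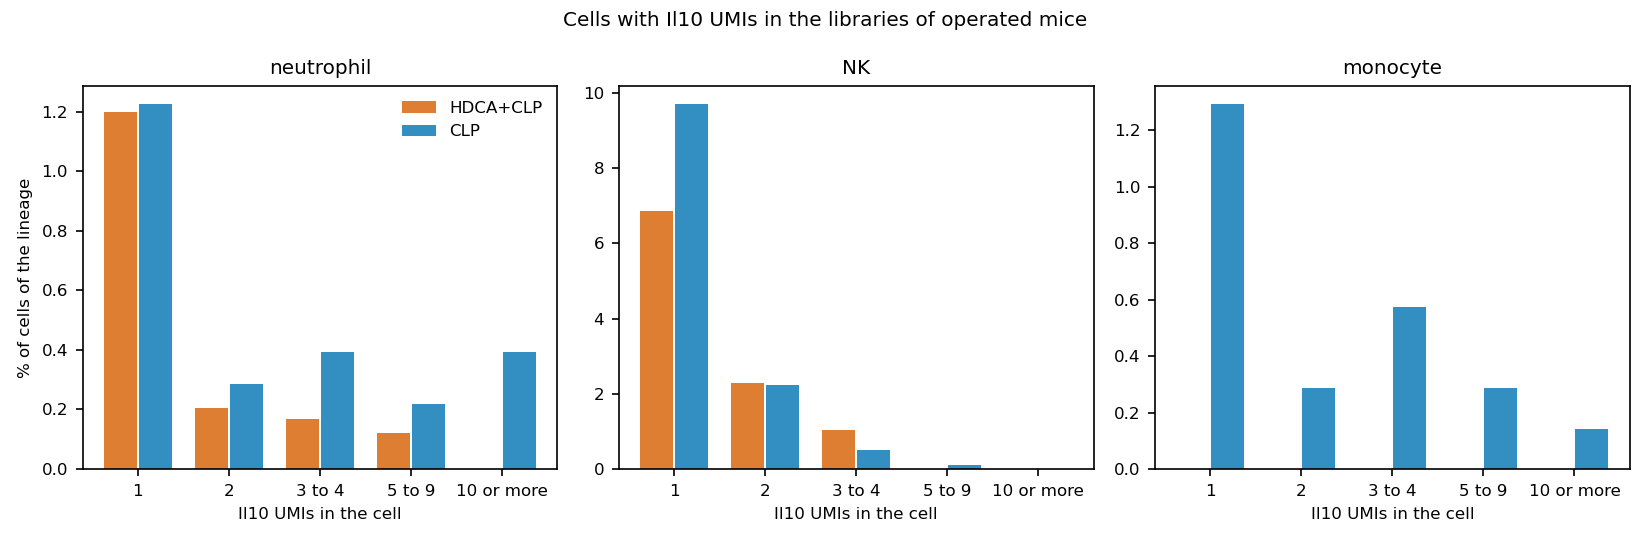
Share of cells (percent of the lineage) by the number of Il10 UMIs in the cell, for neutrophils, NK cells and monocytes of HDCA+CLP and CLP; Sham had 0 such cells in these lineages. In neutrophils cells with 10 or more Il10 UMIs number 0 in HDCA+CLP and 18 in CLP, while NK cells hold at most 4 and 5 UMIs.

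The Il10-rich neutrophils, picked by Il10 and so described without a test, shared other genes between libraries. Ccl4 and Ccl3, chemokine genes, led the genes most above neutrophils without Il10 in both: Ccl4 stood at 1532 CPM in Il10-rich and 30.1 CPM in Il10-free cells of HDCA+CLP, and at 1704 and 25.3 CPM in CLP. F10, the coagulation factor X gene, stood at 595 and 27.8 CPM in HDCA+CLP and at 889 and 19.5 CPM in CLP. Cxcl3 and Plk2 were also among the first 10 genes in both libraries. Socs3 was 306 CPM in Il10-rich and 89.6 CPM in Il10-free neutrophils of HDCA+CLP, and 247 and 74.7 CPM in CLP. Neutrophils under 1% of granule UMIs as a whole had 264 CPM of Socs3 in HDCA+CLP and 281 CPM in CLP. This Socs3 level was thus not particular to Il10-rich cells. Ccl4 in neutrophils under 1% of granule UMIs stood at 127 CPM in HDCA+CLP and 335 CPM in CLP. Ccl3 stood there at 333 CPM in HDCA+CLP and 607 CPM in CLP. Both chemokine genes thus lay between their levels in Il10-free and in Il10-rich cells. Il10-rich cells also had less Camp than Il10-free cells, at 793 against 10838.5 CPM in HDCA+CLP and 3284 against 12825 CPM in CLP. The monocyte marker Treml4 was among the 10 genes in HDCA+CLP (234 and 5.61 CPM), and Nr4a1, another of the monocyte markers, in CLP (523 and 32.6 CPM); their part in the result was not tested. Neutrophils with Il10 passed a second gate in 4.96% of cells in HDCA+CLP and 1.74% in CLP, against 2.21% and 1.46% of those without. By granule transcripts, neutrophils under 1% had 15.5 CPM of Il10 in HDCA+CLP and 119.5 CPM in CLP, and those at or above 1% had 2.01 and 6.87 CPM. HDCA+CLP was lower than CLP in both subsets, by log2 ratios of -2.95 [-3.27, -2.64] and -1.77 [-2.09, -1.45].

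Il10ra, the ligand-binding chain, was lower after CLP in monocytes. Monocytes had 45.2 CPM in HDCA+CLP, 38.9 CPM in CLP and 107 CPM in Sham, a CLP to Sham log2 ratio of -1.45 [-1.67, -1.24], where 16.8% of genes in monocytes were at least 2-fold lower. Classical-marker monocytes had 41.4 CPM in HDCA+CLP, 34.2 CPM in CLP and 63.7 CPM in Sham, and nonclassical-marker monocytes had 101, 83.0 and 193 CPM in the same libraries. The lower level was thus seen in both, with log2 ratios of CLP to Sham of -0.90 [-1.42, -0.34] and -1.22 [-2.07, -0.43], while the subsets themselves differed in level and in their share of monocytes. They held 40 and 50 of the 272 Sham monocytes, so most Sham monocytes were in neither. NK cells had 73.0 CPM in HDCA+CLP, 74.0 CPM in CLP and 80.0 CPM in Sham. T cells had 14.0 CPM in HDCA+CLP, 17.4 CPM in CLP and 10.8 CPM in Sham, a CLP to Sham log2 ratio of 0.69 [0.43, 0.95]. Neutrophils had 19.7 CPM in HDCA+CLP, 19.8 CPM in CLP and 23.7 CPM in Sham, and B cells had 69.6, 46.0 and 57.4 CPM in HDCA+CLP, CLP and Sham. In NK cells, B cells and the whole neutrophil gate the interval of the CLP to Sham log2 ratio included 0. Among neutrophils under 1% of granule UMIs that ratio was 0.86 [0.25, 1.52], higher in CLP.

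Il10rb, the accessory chain, showed no 2-fold difference in either comparison. NK cells had 69.8 CPM in HDCA+CLP, 72.01 CPM in CLP and 139 CPM in Sham, a CLP to Sham log2 ratio of -0.95 [-1.21, -0.68]. B cells had 44.4 CPM in HDCA+CLP, 30.7 CPM in CLP and 61.2 CPM in Sham, a log2 ratio of -0.996 [-1.49, -0.54], just short of 2-fold. Sham was thus the high library in both lineages. Neutrophils had 69.8 CPM in HDCA+CLP, 68.1 CPM in CLP and 97.2 CPM in Sham, monocytes had 49.3, 48.4 and 65.1 CPM, and T cells 31.2, 30.7 and 28.2 CPM in the same libraries. In neutrophils the CLP to Sham log2 ratio was -0.51 [-0.78, -0.23] in the whole gate and 0.38 [0.05, 0.71] under 1% of granule UMIs. HDCA+CLP against CLP gave intervals that included 0 in all 5 lineages. Among neutrophils under 1% of granule UMIs the log2 ratio was -0.24 [-0.43, -0.06].

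Il6ra, the interleukin-6 binding chain, was highest in monocytes and neutrophils of Sham. Monocytes had 182 CPM in HDCA+CLP, 141 CPM in CLP and 256 CPM in Sham, and neutrophils had 113 CPM in HDCA+CLP, 80.9 CPM in CLP and 240 CPM in Sham. The intervals of these lineages overlapped in Sham and were apart in HDCA+CLP and CLP. T cells had 97.2 CPM in HDCA+CLP, 75.2 CPM in CLP and 131 CPM in Sham. In these 3 lineages CLP was the lowest library, with log2 ratios to Sham of -1.57 [-1.75, -1.39] in neutrophils, -0.86 [-0.99, -0.73] in monocytes and -0.80 [-0.90, -0.71] in T cells, and HDCA+CLP lay between, 0.37 to 0.48 above CLP. In neutrophils under 1% of granule UMIs Il6ra had 226 CPM in HDCA+CLP, 197 CPM in CLP and 269 CPM in Sham, a CLP to Sham log2 ratio of -0.45 [-0.66, -0.22]. The log2 ratio of HDCA+CLP to CLP was 0.20 [0.05, 0.34] in them and 0.43 [0.36, 0.49] in neutrophils at or above 1%. T cells with no Cd4 or Cd8 UMI had 106 CPM in HDCA+CLP, 63.8 CPM in CLP and 144 CPM in Sham, and Cd8-only cells had 85.5, 77.1 and 89.4 CPM. HDCA+CLP against CLP gave a log2 ratio of 0.74 [0.50, 0.97] in T cells with no Cd4 or Cd8 UMI. The interval included 0 in Cd8-only cells, with 0.15 [-0.09, 0.38], and in Cd4-only cells, with 0.02 [-0.29, 0.32]. In B cells Il6ra had 13 UMIs in HDCA+CLP (15.6 CPM), 45 in CLP (34.5 CPM) and 211 in Sham (17.2 CPM), and 2 cells held 31.1% of the CLP UMIs. Among cells passing only 1 gate, the B cell log2 ratio was 0.07 for HDCA+CLP against CLP and -0.38 for CLP against Sham, which turned both directions round. NK cells had 1.18 CPM in HDCA+CLP, 3.36 CPM in CLP and 0.816 CPM in Sham, against 1.498, 1.14 and 1.30 CPM that free RNA would give, and their counts of 3, 20 and 1 UMIs left 0 inside the interval of both log2 ratios.

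Il6st, encoding gp130, was highest in T cells in all 3 libraries. T cells had 58.4 CPM in HDCA+CLP, 47.6 CPM in CLP and 54.4 CPM in Sham, and monocytes had 21.4 CPM in HDCA+CLP, 22.5 CPM in CLP and 40.5 CPM in Sham. Foxp3-positive T cells had 181 CPM in HDCA+CLP, 176 CPM in CLP and 65.8 CPM in Sham. B cells had 18.0 CPM in HDCA+CLP, 20.7 CPM in CLP and 5.37 CPM in Sham, a CLP to Sham log2 ratio of 1.95 [1.24, 2.61] from 27 and 66 UMIs, and of 1.17 when doublets were kept. The intervals of B cells and monocytes overlapped in HDCA+CLP and CLP, and monocytes were higher in Sham. B cells were thus the lineage where the signalling chain, Stat3 and Socs3 were each at least 2-fold higher in CLP. NK cells had 11 UMIs in HDCA+CLP, 33 in CLP and 0 in Sham. Neutrophils had 0.309 CPM in HDCA+CLP, 0.253 CPM in CLP and 0.845 CPM in Sham (1 UMI), near the 0.447, 0.424 and 0.521 CPM that free RNA would give, so Il6st was not detectable above background in neutrophils.

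The other genes of the pathway were counted from lists, with medians beside those of all genes. Neutrophil values of all lists are for the whole gate. Cells under 1% of granule UMIs made up 10.4% of it in CLP and 92.2% in Sham, and their part was not tested. Of the interferon response list, 7 of 11 genes in neutrophils, 10 of 12 in monocytes, 10 of 12 in B cells, 10 of 12 in T cells and 7 of 12 in NK cells were at least 2-fold higher in CLP than in Sham, and 0 were lower. The median log2 ratio of the list was 1.72, 2.16, 1.68, 2.60 and 1.20 in these lineages, and that of all genes -0.22, -0.20, -0.09, -0.03 and -0.27. Backgrounds of genes higher in CLP were 11.9%, 11%, 9.15%, 10.1% and 6.82% in these lineages. Examples were Ifit1 in neutrophils, an antiviral effector, at 130 CPM in CLP and 8.45 CPM in Sham, and Cxcl10 in T cells, a chemokine, at 73.3 CPM in CLP and 0.485 CPM in Sham. Usp18, which shuts off the interferon receptor, was at least 2-fold higher in all 5 lineages, with 24.0 CPM in T cells of CLP and 7.61 CPM in Sham. In HDCA+CLP against CLP, 0 of 12 genes of this list in neutrophils and 0 of 12 in T cells were at least 2-fold higher or lower. In monocytes 0 of 12 were higher and 2 lower, namely Gbp2, at 44.7 CPM in HDCA+CLP and 89.5 CPM in CLP, and Iigp1 (log2 -1.13), where 2.56% of all genes were lower. In B cells 2 of 11 were higher, Gbp5 (log2 1.10) and Iigp1 (log2 1.58), and 2 lower, Isg15 (log2 -1.58) and Cxcl10 (log2 -1.49), with 4.11% of all genes higher and 7.29% lower. In NK cells 1 of 12 was higher, Iigp1, at 16.2 CPM in HDCA+CLP and 5.72 CPM in CLP, and 1 lower, Cxcl10 (log2 -1.12), with 1.49% of all genes higher and 1.86% lower.

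The STAT3 and interleukin-10 response list split by lineage. In CLP against Sham 11 of 22 genes were at least 2-fold higher in T cells, 10 of 22 in B cells, 9 of 23 in monocytes, 6 of 22 in NK cells and 1 of 21 in neutrophils, with 10.1%, 9.15%, 11%, 6.82% and 11.9% of all genes higher in these lineages. Lower were 0 in T cells, 1 in B cells, 4 in monocytes, 0 in NK cells and 9 in neutrophils, with 6.62%, 13.3%, 16.8%, 12.9% and 22.1% of all genes lower. Its median log2 ratio was 0.99 in T cells, where the median over all genes was -0.03, and -0.49 in neutrophils, where that over all genes was -0.22. In monocytes Il1rn, the interleukin-1 receptor antagonist, was at 153 CPM in CLP and 6.92 CPM in Sham, and Il1r2, the decoy receptor, at 657 CPM in CLP and 39.5 CPM in Sham. Il1r2 was at 1319 CPM in CLP neutrophils and at 24.4 CPM in T cells of CLP, and the part of free neutrophil RNA in the T cell count was not tested. In HDCA+CLP against CLP, 1 of 24 genes of this list was higher and 2 lower in monocytes, where 1.71% of all genes were higher and 2.56% lower. Marco, a scavenger receptor, was the higher one, at 4.61 CPM in HDCA+CLP (17 UMIs) and 0.853 CPM in CLP (9 UMIs). Hmox1, heme oxygenase 1, was 326 CPM in HDCA+CLP and 673 CPM in CLP, and Cd163, the haemoglobin scavenger receptor, 6.77 CPM in HDCA+CLP and 19.9 CPM in CLP. In the other lineages 1 gene was higher and 6 lower of 21 in B cells, 0 higher and 1 lower of 22 in T cells, 0 higher and 2 lower of 22 in NK cells, and 0 of 23 differed that far in neutrophils.

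Ligands and receptors around the members were also counted. Osm, encoding the gp130 ligand oncostatin M, was 76.5 CPM in CLP neutrophils and 363 CPM in Sham neutrophils, a log2 ratio of -2.25 [-2.39, -2.10]. Il6 was found in CLP monocytes with 90 UMIs (8.53 CPM) and in Sham monocytes with 0. Csf3r, the G-CSF receptor that SOCS3 inhibits, was 148 CPM in CLP neutrophils and 1560 CPM in Sham neutrophils. For Osm and Csf3r the whole neutrophil gate is meant, with 10.4% of cells under 1% of granule UMIs in CLP and 92.2% in Sham. Among STAT5-coupled receptors, Il2rb, the interleukin-2 receptor beta chain, was 259 CPM in CLP T cells and 71.6 CPM in Sham T cells. Of the 15 receptors in that list, 5 of 11 counted were at least 2-fold higher and 1 lower in T cells (10.1% and 6.62% of all genes), and 6 of 11 higher and 1 lower in B cells (9.15% and 13.3%). The lower ones were Il9r in T cells (log2 -2.73, from 3 and 25 UMIs) and Il21r in B cells (log2 -1.43). In neutrophils 1 of 10 was higher and 4 lower, among them Il7r (log2 -2.24) and Csf3r, where 11.9% of all genes were higher and 22.1% lower. In monocytes 3 of 9 were higher and 1 lower, and in NK cells 2 of 8 were higher and 0 lower. Il27ra, another partner of gp130, was lower in CLP in B, T and NK cells, with 34.5 CPM in T cells of CLP and 90.6 CPM in T cells of Sham. Lifr, the leukaemia inhibitory factor receptor, was 23.4 CPM in CLP monocytes and 89.0 CPM in Sham monocytes.

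Kinases, other STATs and other inhibitors were counted in the same way, again over the whole neutrophil gate. Of Jak1, Jak2, Jak3 and Tyk2, 0 were at least 2-fold different in T cells, 1 was higher and 2 lower in NK cells, and Jak1 was 140 CPM in CLP neutrophils and 330 CPM in Sham neutrophils. Stat2, an interferon STAT, was higher in CLP in neutrophils, B cells and T cells, and Stat5b was 25.5 CPM in CLP neutrophils and 94.7 CPM in Sham neutrophils. Ptpn6, the phosphatase SHP-1, was lower in CLP in B, T and NK cells, with 121 CPM in B cells of CLP and 391 CPM in B cells of Sham. Of Socs4 to Socs7, 0 were at least 2-fold higher in CLP in any lineage, and Socs5 was lower in monocytes and NK cells. Among genes linked to Il10 transcription, 6 of 8 were higher in CLP in T cells and 5 of 6 in B cells, with 10.1% and 9.15% of all genes higher, and 0 were lower in either. In monocytes 2 of 6 were higher and 2 lower (11% and 16.8% of all genes). Maf was 202 CPM in CLP monocytes and 27.3 CPM in Sham monocytes, and the lower ones were Irf4 (log2 -4.87, from 3 and 24 UMIs) and Ahr (log2 -1.20). In neutrophils 0 of 4 were higher, and Nfil3 was lower (log2 -1.54). NK cells, the lineage with the highest CPM of Il10, had 0 of 7 higher and 1 lower, Tbx21, at 62.8 CPM in CLP and 126 CPM in Sham.

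The genes most like 4 of the members over the 15 lineage and library sums were found by Pearson's r of log2(CPM + 10), as a description among about 4645 genes. The sums share libraries, so they are not independent. Socs3 was closest to Cks2 (r = 0.84), Saa3 (0.77) and Sbno2 (0.76). Socs1 was closest to Gbp7 (0.90), H2-Q4 (0.89) and Klhl6 (0.89), of which Gbp7 is an interferon-inducible guanylate-binding protein gene. Cish was closest to Ifi27 (0.74), Ifit1 (0.73) and Ndfip1 (0.73), and Il10 to Zfp787, Sult2b1 and Tmem203 (0.77 each).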

How the data were processed

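Raw UMI counts per gene and barcode were deposited by the authors, made with Cell Ranger 5.0.1 per the file headers; Seurat 4.0.6, R 4.0.3 and mm39 stand in the submitters' processing notes. No coordinates of the files were used. Cells needed 500 UMIs, 200 genes and at most 10% mitochondrial UMIs; 1156, 940 and 380 called doublets were removed from HDCA+CLP, CLP and Sham (0.8% per 1000 cells, scored against 2 simulated doublets per cell). UMIs were summed per gate and library and scaled to 1000000 (CPM), with exact Poisson intervals, exact conditional binomial intervals of ratios and Clopper-Pearson intervals of shares. Genes with at least 20 UMIs over both libraries were counted, and at least 2-fold was the threshold; a library at 0 was set to 3 counts. Free RNA was estimated from S100a8 and S100a9 in the other gates, and from B, T and NK cell genes in neutrophils, against the summed kept cells of the library. The ratio step was checked on simulated data. Named were all 10 genes and, from each list, the 2 with the highest and the 2 with the lowest ratio bound nearest to 0 among those past 2-fold. Members, gates and lists were chosen with earlier results of these data known; T cells without Cd4 or Cd8 UMIs and Il10-rich neutrophils were singled out after values were seen. Python 3.11.15, NumPy 2.4.6, SciPy 1.17.1, pandas 2.3.3 and matplotlib 3.10.9 were used.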

Additional observations from a re-analysis of the deposited data

Results flagged for a closer look

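Socs3 ran in opposite directions between lineages in CLP against Sham. Its log2 ratio was -2.16 in neutrophils and 2.63, 5.22, 1.90 and 2.05 in monocytes, B cells, T cells and NK cells. The neutrophil value was -0.56 in cells under 1% of granule UMIs, which were 10.4% of neutrophils in CLP and 92.2% in Sham, and 2.68 [0.82, 5.72] in cells at or above 1%, so the lower direction did not hold in both subsets. Il6ra also gave ratios of opposite sign, with -1.57 in neutrophils, 1.01 in B cells and 2.04 in NK cells. These differences between lineages were not tested, because each rests on 1 library per group, and the Il6ra values in B and NK cells come from 45 and 20 UMIs in CLP. The opposite sign of Il6ra is not stable: the B cell value was -0.38 among cells that passed only 1 gate and 0.06 as a mean over cells. The NK interval of -0.60 to 7.42 includes 0. The neutrophil value kept its sign but was smaller within granule subsets, at -0.45 [-0.66, -0.22] under 1% of granule UMIs. At or above 1% it was -0.45 [-1.08, 0.26], an interval that includes 0, with 18 cells in Sham.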

How the results depend on the processing

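Counts of differences held within 1.5 times under most of the 9 alternatives. The 21 pairs higher in CLP than in Sham became 15 to 23, the 3 lower ones 3 to 5, with 5 when doublets were kept and 5 for cells that passed only 1 gate, and the 6 lower in HDCA+CLP than in CLP became 3 to 7, with 3 under a minimum of 100 UMIs, where fewer genes were counted. Of all 30 calls, 26 to 30 held under the alternatives other than that minimum, under which 21 remained. Il6ra in B cells turned round among cells that passed only 1 gate, to -0.38 in CLP against Sham and 0.0743 in HDCA+CLP against CLP; the cause was not tested. Socs3 in neutrophils kept its direction in CLP against Sham, from -2.28 to -1.93, and in B cells from 4.71 to 5.58. Leaving out neutrophils with at least 5 Il10 UMIs, an alternative chosen after seeing the data, moved Il10 in HDCA+CLP against CLP to -0.42. Of 30 shares of cells with Socs3 or Il10, 20 left their interval without thinning and 19 at 1000 UMIs, as a share depends on depth. Sham holds 232 neutrophils and 1183132 of their UMIs, so the floor of 3 counts used for ratios stands at 2.54 CPM there. No paired analysis was possible because each group has 1 library and no replicate numbers.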
